A study of Mus musculus with 68 samples.

Results

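The subcortical maternal complex is a protein assembly that lies beneath the surface of the mouse egg. Its genes were followed here through 7 members, Nlrp5, Ooep, Khdc3, Tle6, Padi6, Nlrp2 and Nlrp4f, chosen by name as parts or reported associates of the complex. All 7 were listed in each of the 8 deposited tables, out of 24941 gene names in any table. The RNA came from fully grown oocytes (FGO) and from embryos at the 1-cell (PN5), late 2-cell, 8-cell, E3.5 and E4.25 stages, and from the epiblast and the extraembryonic ectoderm at E6.5, and its polyadenylated fraction was sequenced by Smart-seq2, which copies whole transcripts from few cells. The series compared wild type (WT) with deletion of Ezhip, whose product inhibits the histone methyltransferase complex PRC2, and asked what EZHIP does in the transfer of the mark H3K27me3 between generations.

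The oocytes were WT (2 libraries), Ezhip Het (2) and Ezhip KO (3) (heterozygous and knockout). The embryos were labelled WT, Ezhip mHet and Ezhip mKO, and the labels do not spell out the m. There were 2 libraries of each genotype at the 1-cell and late 2-cell stages, in the first E3.5 table and in each E6.5 tissue, and 5 of each in the second E3.5 table. The 8-cell stage had 2 WT, 1 mHet and 3 mKO libraries, and E4.25 had 4 WT, 4 mKO and 1 mHet, since its 2 deposited mHet libraries held identical values and were counted as 1. The strain, the age of the females, the paternal allele and the number of cells per library were not stated, and no label says whether libraries of a group came from separate animals. The p-values therefore measure the spread between these libraries, which may be technical.

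NLRP5, OOEP, KHDC3 and TLE6 are proteins that the growing oocyte stores and the cleaving embryo uses up, and loss of several of them in the mother arrests the embryo at early cleavage. PADI6 is needed for the cytoplasmic lattices, the fibres on which the egg stores proteins, and NLRP2 and NLRP4F associate with the complex. Most of these genes are known as maternal-effect genes, transcribed in the oocyte and shut off in the embryo.

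Ezhip itself, listed under its older symbol AU022751, checked the labels. WT oocytes held 546 and 297 FPKM, Het oocytes 143 and 84.1, and KO oocytes 0, 0.175 and 0.117. FPKM scales reads to gene length and library size, so levels of different genes can be compared within a library. At the 1-cell stage Ezhip was at 251 and 368 in WT, 157 and 244 in mHet, then 0.933 and 0.124 in mKO. It was at most 1.503 in any library from the 8-cell stage on, WT included, so it does not check the labels there. Libraries held between 4940 and 9804 genes of at least 1 FPKM, and the share of the summed FPKM taken by the ribosomal transcript Rn45s reached 69.5% in the second E3.5 table and 68.6% at E4.25, against at most 6.03% in every library up to the 8-cell stage. Read depth could not be recovered from the values.

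The stretch upstream of the start site of all 7 members was found in the RefSeq promoter table for GRCm38.p6, and 4 are printed because their genes differ most in what follows. The WT means of Khdc3 and Ooep were higher again later in cleavage or in the blastocyst, by 28.7 and 10.6 times between neighbouring stages. Nlrp5 and Padi6 alone had a lower mean at each stage up to the first E3.5 table. From the 8-cell stage to that table Nlrp4f went from 0.560 to 0.725 FPKM, Tle6 from 1.86 to 1.95 and Nlrp2 from 0 to 0.0247. Each line gives the 250 bases before the annotated start, read 5′ to 3′ on the gene's own strand, with matches to the searched motifs in capitals.
Nlrp5: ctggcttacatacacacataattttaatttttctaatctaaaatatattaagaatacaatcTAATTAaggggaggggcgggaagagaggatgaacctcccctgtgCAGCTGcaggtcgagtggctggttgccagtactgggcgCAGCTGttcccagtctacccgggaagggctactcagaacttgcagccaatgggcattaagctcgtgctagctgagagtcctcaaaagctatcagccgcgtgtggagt
Ooep: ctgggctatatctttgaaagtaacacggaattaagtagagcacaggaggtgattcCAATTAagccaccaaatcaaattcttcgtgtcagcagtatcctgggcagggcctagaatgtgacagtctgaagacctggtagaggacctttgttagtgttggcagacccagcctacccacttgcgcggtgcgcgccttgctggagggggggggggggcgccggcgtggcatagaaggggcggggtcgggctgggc
Khdc3: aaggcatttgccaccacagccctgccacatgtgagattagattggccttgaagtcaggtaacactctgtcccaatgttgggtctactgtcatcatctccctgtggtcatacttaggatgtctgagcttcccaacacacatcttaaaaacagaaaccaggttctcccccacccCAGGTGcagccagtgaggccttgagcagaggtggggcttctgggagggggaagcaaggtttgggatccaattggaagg
Padi6: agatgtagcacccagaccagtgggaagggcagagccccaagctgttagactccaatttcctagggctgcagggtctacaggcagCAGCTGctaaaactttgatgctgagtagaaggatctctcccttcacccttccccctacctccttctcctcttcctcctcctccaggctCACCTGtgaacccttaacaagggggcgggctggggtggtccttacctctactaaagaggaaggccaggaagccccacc

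These stretches lie at chr7:23385639-23385888 on the plus strand for Nlrp5, chr9:78378589-78378838 on the minus strand for Ooep, chr9:73102148-73102397 on the plus strand for Khdc3 and chr4:140742644-140742893 on the minus strand for Padi6. The motifs searched on both strands were CAGCTG and CACCTG, E-box forms of the kind bound by the oocyte factor FIGLA, TAATTG and TAATTA, homeobox sites of the kind bound by NOBOX and LHX8, and TATAAA, the TATA box. CAGCTG and TAATTA read the same on both strands, and no match overlapped another. CAGCTG was found at positions -145 and -107 of Nlrp5 and at -166 of Padi6, counted from the start site, so 2 of 7 members held it against 12.7% of 27025 promoters of the same length. CACCTG was found in Padi6 and, on the opposite strand, in Khdc3, both at -78, against 17.1% of promoters. TAATTA occurred in Nlrp5 at -189 (4.91% of promoters) and TAATTG on the opposite strand of Ooep at -195 (7.33%). Tle6, Nlrp2 and Nlrp4f held none of the motifs, and no member held TATAAA, which 13.0% of promoters hold. The Khdc3 stretch contained 0 CpG dinucleotides, that of Padi6 1 and those of Nlrp2 and Nlrp4f 2 each. Ooep had 11, Tle6 17 and Nlrp5 7, and the median over all promoters was 6. These matches describe letters in a window of 250 bases and say nothing of binding.

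In oocytes the members ranked among the most abundant transcripts, and Ooep, which encodes a KH-domain scaffold of the complex, led them. Ooep was at 5542 and 1057 FPKM in the WT oocytes. Its level was 4574 and 1129 in Het oocytes and 5066, 4253 and 1185 in those of KO. Padi6 followed with 1138 and 780 in WT, 1361 and 927 in Het, then 1313, 1466 and 634 in KO. Tle6, a Groucho-family member of the complex, was at 767 and 369 in WT, 918 and 452 in Het, then 889, 1081 and 338 in KO. In each genotype 1 library held lower values of these 3 genes than the other or others. Nlrp4f, an NLRP family member, was at 276 and 305 in WT, 344 and 303 in Het, then 391, 339 and 334 in KO. Khdc3, which encodes a KH-domain protein needed for spindle assembly and chromosome stability, was at 218 and 209, then 245 and 177, then 218, 215 and 202, in the same order of genotypes. Nlrp5, the scaffold NLRP protein of the complex, was at 143 and 283, then 195 and 259, then 164, 193 and 239. Nlrp2, an NLRP gene of oocytes, was the lowest member in every oocyte library, at 34.4 and 99.4, then 38.5 and 84.8, then 45.5, 54.8 and 90.8. Among the 14055 genes named in all tables, the mean percentile over the 7 libraries was 99.9 for Ooep, 99.7 for Padi6, 99.4 for Tle6, 98.9 for Nlrp4f, 98.3 for both Khdc3 and Nlrp5 and 93.9 for Nlrp2. The 7 genes made up between 0.848% and 2.51% of all FPKM in an oocyte library.

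In WT, the mean of 6 of the 7 members was lower at the 1-cell stage than in the oocyte and that of Nlrp4f was higher, and for Nlrp5 the libraries of the 2 stages overlapped. The tables were normalized separately by the authors, so levels of different stages are set side by side with no test. In bulk RNA a lower value can mean fewer transcripts per cell or a smaller share of the library, which cannot be told apart here. Ooep went from 3299.5 ± 3172 FPKM (SD, n = 2) in WT oocytes to 677 ± 78.0 (n = 2) at the 1-cell stage, 57.5 ± 2.17 (n = 2) at the late 2-cell stage and 3.44 ± 0.177 (n = 2) at the 8-cell stage. Tle6 went from 568 ± 282 to 83.9 ± 34.1, 12.4 ± 0.857 and 1.86 ± 0.446 over the same stages. Padi6 kept more of its level between the late 2-cell and the 8-cell stage, at 959 ± 253, 355 ± 26.8, 19.9 ± 1.53 and 12.8 ± 2.94, and reached 1.05 in the first E3.5 table.

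The 3 NLRP genes were all lower at the late 2-cell stage than at the 1-cell stage. Nlrp5 was at 213 ± 98.7 FPKM in WT oocytes, 153 ± 18.8 at the 1-cell stage, 12.5 ± 2.57 at the late 2-cell stage and 0.769 ± 0.120 at the 8-cell stage. Nlrp2 went from 66.9 ± 45.9 to 16.1 ± 0.396 and 3.07 ± 0.719 and was listed at 0 in both WT 8-cell libraries. Nlrp4f went from 290 ± 21.0 to 548 ± 82.9, which was 1.88 times the oocyte mean, and every one of the 6 embryo libraries of the 1-cell stage (489 to 629) lay above all 7 oocyte libraries (276 to 391). It then stood at 14.5 ± 3.32 at the late 2-cell stage, 37.6 times lower. The mean percentile of Nlrp4f was 98.9 in oocytes and 99.6 in 1-cell embryos, a rank that no scaling of a library changes.

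**Figure D1:**
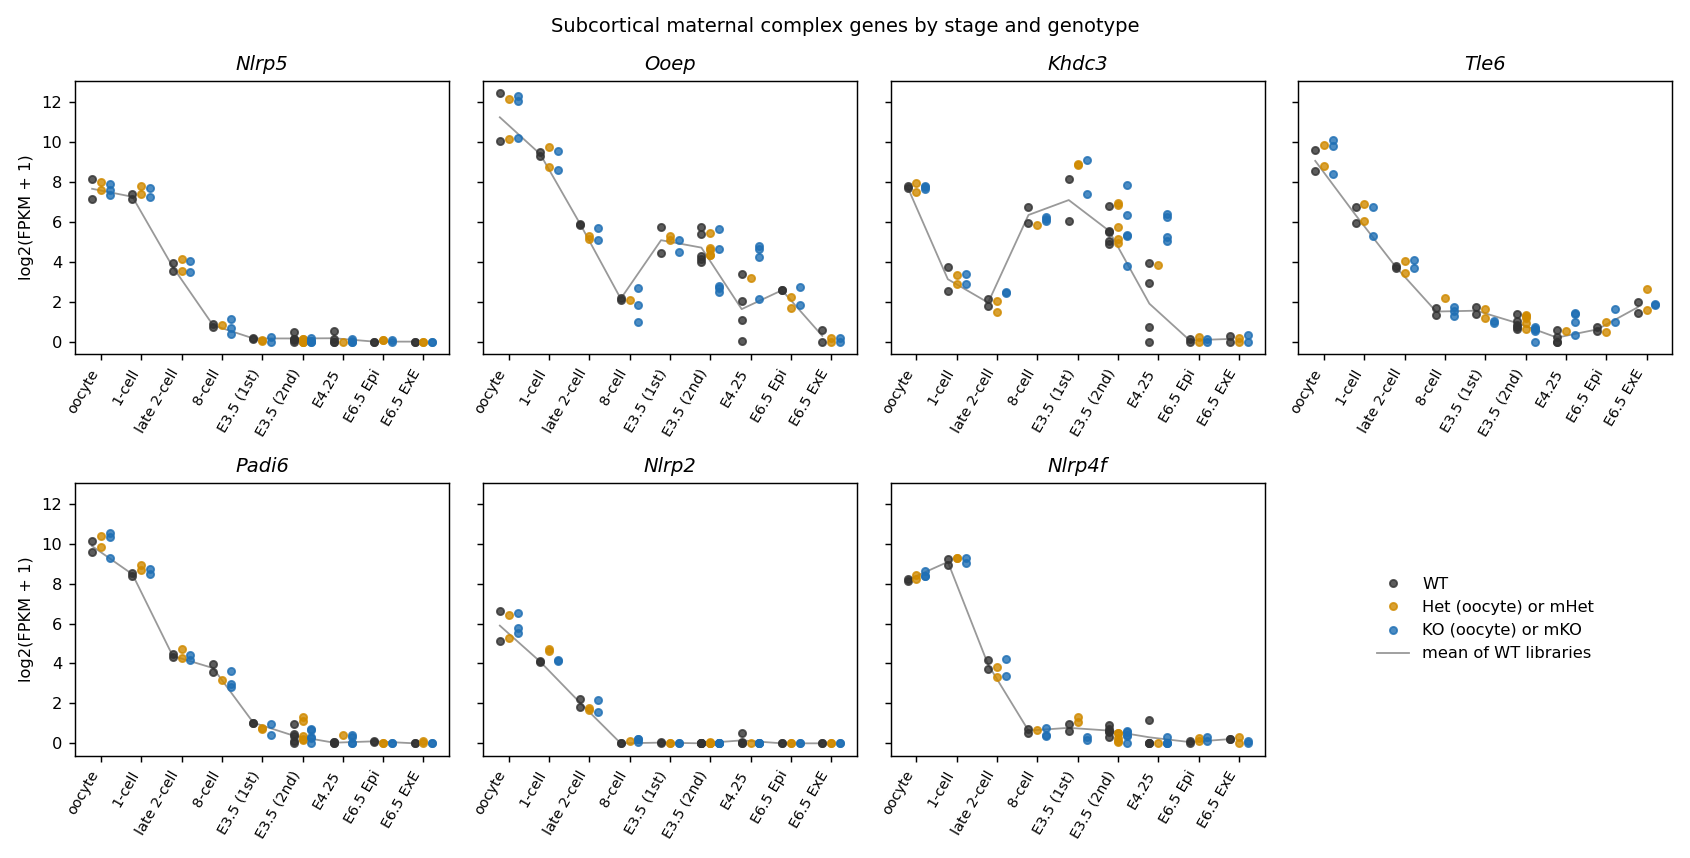
Level of each member as log2(FPKM + 1) on the vertical axis by stage on the horizontal axis, where each point is 1 library coloured by genotype and the grey line joins the means of the WT libraries of tables normalized separately. Nlrp5, Padi6, Nlrp2 and Nlrp4f run down to near 0 by E3.5, while the WT mean of Khdc3 goes from 2.91 FPKM at the late 2-cell stage to 83.7 at the 8-cell stage and that of Ooep from 3.44 at the 8-cell stage to 36.5 in the first E3.5 table.

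Khdc3 did not follow the other members. Its WT mean was 25.2 times lower in the 1-cell embryo than in the oocyte, at 8.47 ± 5.17 against 214 ± 6.39 FPKM (n = 2 each), a larger difference than that of any other member at this step, and reached 2.91 ± 0.728 at the late 2-cell stage. At the 8-cell stage it was back at 60.0 and 107 FPKM in WT, 56.5 in mHet, then 75.2, 70.2 and 66.1 in mKO. All 6 libraries of the 8-cell stage lay above all 6 of the late 2-cell stage (1.80 to 4.53). In the first E3.5 table Khdc3 was at 64.1 and 286 in WT, 463 and 469 in mHet, then 169 and 540 in mKO, a range that overlaps that of the 8-cell stage. The mean percentile of Khdc3 moved from 98.3 in oocytes to 70.3, 53.1 and then 93.9 at the 8-cell stage and 98.5 and 97.4 in the E3.5 tables. At E6.5 the gene was at most 0.265 FPKM in any library of either tissue.

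Ooep was higher again only at E3.5, and there its WT mean stayed below that of the late 2-cell stage. It was at 3.32 and 3.57 FPKM in the WT 8-cell libraries, 3.20 in mHet, then 2.59, 5.54 and 0.947 in mKO. In the first E3.5 table it was at 20.5 and 52.5 in WT, 38.6 and 32.9 in mHet, then 33.6 and 21.7 in mKO, and no library of either stage overlapped the other. The WT mean was 10.6 times higher in the first E3.5 table than at the 8-cell stage. In the second E3.5 table Ooep ran from 14.7 to 53.1 in WT (median 18.3), from 19.0 to 42.0 in mHet (median 22.8) and from 4.52 to 49.6 in mKO (median 5.91). Khdc3 in the same libraries ran from 28.7 to 112 in WT (median 43.4), from 30.1 to 121 in mHet (median 52.4) and from 12.7 to 228 in mKO (median 39.7). The spread between libraries of 1 genotype was wide for both genes, and the genotypes overlapped. The other members stayed low at E3.5: across the 21 libraries of both tables Tle6 was at most 2.28 FPKM, Padi6 1.53, Nlrp4f 1.47, Nlrp5 0.379 and Nlrp2 0.0588.

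The exchange between Ooep and Khdc3 was large within single libraries, where scaling cancels. The ratio of Ooep to Khdc3 was 5.05 to 25.4 in the 7 oocyte libraries and 59.5 to 129 in the 6 of the 1-cell stage. The oocyte ratios were 18.7 to 25.4 in WT 1, Het 1, KO 1 and KO 2 and 5.05 to 6.36 in WT 2, Het 2 and KO 3, the library sets described below. At the late 2-cell stage the ratio was 7.68 to 24.6. Of these, 7.68, 10.7, 11.4 and 16.3 lay between the 2 oocyte sets, and 20.9 and 24.6 within the higher set. At the 8-cell stage it was 0.0143 to 0.0790, below all earlier libraries. At E3.5 it was 0.0402 to 0.320 in the first table and 0.140 to 0.904 in the second. Khdc3 made up 0.289% to 0.602% of the members' summed FPKM at the 1-cell stage and 77.5% to 86.5% at the 8-cell stage. Ooep held 33.9% to 68.3% of the sum in oocytes and 1.15% to 6.54% at the 8-cell stage.

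**Figure D2:**
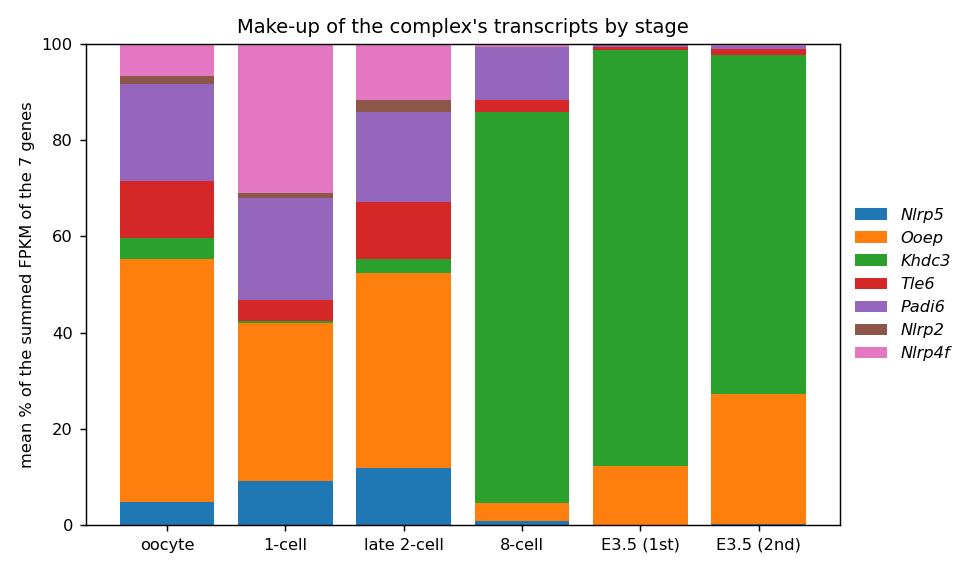
Stacked bars give the mean percent of the members' summed FPKM held by each gene (vertical axis) over all libraries of a stage (horizontal axis). Ooep holds a mean of 50.5% in oocytes, and Khdc3 holds 81.3% at the 8-cell stage and 86.5% in the first E3.5 table.

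The members' WT profiles were compared as Pearson correlations of log2(FPKM + 1) over 9 groups, which share tables and depth and are given as a description. Nlrp5 and Nlrp4f were the most alike pair (r = 0.992), followed by Tle6 and Nlrp2 (0.985) and by Nlrp5 and Nlrp2 (0.980). Khdc3 correlated with the other members at 0.273 to 0.522, and the pairs without Khdc3 lay between 0.881 and 0.992. Among genes of at least 10 FPKM in WT oocytes, the profile most like the mean of the members was that of C87977 (r = 0.988), followed by Oas1e (0.988), H1foo, the oocyte linker histone (0.987), Clec10a (0.986) and Daf2 (0.985). The genes most like Nlrp4f were Rfpl4 (0.999), with 1546 FPKM in WT oocytes and 2444 at the 1-cell stage, and its relatives Nlrp9a (0.999) and Nlrp4a (0.998). Nlrp5 was most like Fbxw28 (0.999) and Tle6 most like Zp1, a zona pellucida gene (0.988). Khdc3 was most like Fam151a (0.946), at 99.2 FPKM in WT oocytes, 0.852 at the late 2-cell stage and 32.2 at the 8-cell stage, and the next gene, Nat9, reached only 0.869. Ooep was most like Dlgap4 (0.970).

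In the genome the members are scattered over chromosomes 4, 7, 9, 10 and 13, in the order of genes in the RefSeq annotation. Nlrp5 stands beside Nlrp4e on chromosome 7, another NLRP gene of oocytes, whose level was 28.6 FPKM in WT oocytes and whose WT profile was close to that of Nlrp5 (r = 0.989). Ooep stands beside Dppa5a on chromosome 9, which is also a KH-domain gene and was at 948 FPKM in WT oocytes, but their profiles were unlike (r = 0.228). Padi6 stands between Rcc2, at 3.89 FPKM in WT oocytes, and Padi4, at 0.204. Tle6 stands between Tle2, at 0.0162, and Sirt6, at 14.8, and Khdc3 between Rab27a, at 4.24, and Rsl24d1, at 84.1. The other neighbours of Nlrp5 and Ooep and both of Nlrp4f were at most 0.108. Both Vmn1r neighbours of Nlrp2 were below 0.003 FPKM.

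The relatives of the members in the oocyte, from fixed lists, showed which branches of each family were present. Of 10 listed oocyte NLRP genes outside the members 8 passed the filter on low values (1 FPKM or more in at least 2 libraries), with Nlrp14 at 932 and Nlrp4a at 166 FPKM in WT oocytes. None of 6 NLRP genes of immune cells and barrier tissue passed it, and their WT means were at most 0.0475. None of the other 4 peptidylarginine deiminases passed, beside 959 for Padi6. Of 5 other Groucho genes, 2 passed, Tle4 at 2.25 and Aes at 1.57, beside 568 for Tle6. All 4 KH-domain relatives passed, with Khdc1b at 592. Zbed3, a reported partner of the complex, was at 2824, and Dppa3, a maternal-effect gene that protects DNA methylation, was at 2692. No gene of these lists passed between genotypes in limma at any stage other than E4.25. No source used here gives how reads shared by similar NLRP genes were assigned, so levels of Nlrp4f and its close relatives are uncertain.

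The oocyte libraries fell into 2 sets, and for 6 of the 7 members, all but Nlrp4f, the difference between the sets was larger than any genotype difference in oocytes. With median ratio scaling the set difference of Nlrp4f was -1.21 and that of Nlrp2 -0.0069, so which member is the exception depends on the scaling. The labels name the libraries by consecutive numbers and mark no break between them. The cut was drawn here between 4 and 5. WT 1, Het 1, KO 1 and KO 2 (1 to 4) form the first set and WT 2, Het 2 and KO 3 (5 to 7) the second. What the sets stand for is not stated, and each holds all genotypes. Ooep was at 4859 ± 565 FPKM (SD, n = 4) in the first set and 1123 ± 64.3 (n = 3) in the second, 4.32 times lower. It ranked between 3 and 5 among all genes in the first set and between 23 and 27 in the second. Tle6 was at 914 ± 129 and 386 ± 59.1, and Padi6 at 1320 ± 137 and 780 ± 147. Nlrp2 was higher in the second set, at 43.3 ± 8.94 and 91.7 ± 7.31, as was Nlrp5, at 174 ± 24.7 and 260 ± 22.1. Khdc3 was at 224 ± 14.1 and 196 ± 16.7 and Nlrp4f at 337 ± 47.4 and 314 ± 17.4.

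The division was tested after the values were seen, with limma on log2(FPKM + 1) and genotype as a term. The second set was lower by 2.11 for Ooep (SE 0.10, adjusted p = 9.91e-11), by 1.23 for Tle6 (SE 0.12, adjusted p = 1.77e-07) and by 0.78 for Padi6 (SE 0.12, adjusted p = 1.46e-05). It was higher by 1.13 for Nlrp2 (SE 0.15, adjusted p = 6.9e-06) and by 0.58 for Nlrp5 (SE 0.13, adjusted p = 0.000608), but with median ratio scaling these differences were -0.01 (adjusted p = 0.981) and -0.56 (adjusted p = 0.0858). Khdc3 (adjusted p = 0.129) and Nlrp4f (adjusted p = 0.615) did not pass in limma. The 5 members called are read against 7955 of 9818 genes called (81%), of which 7746 were higher in the second set, with a median difference of 0.88 over all genes. Against that median all members but Nlrp2 were lower in the second set, and with median ratio scaling Khdc3 (-1.34, adjusted p = 0.00379) and Nlrp4f (-1.21, adjusted p = 0.0102) passed in limma as well. The sets did not overlap in 6 of 7 members, all but Nlrp4f, beside 75.3% of all genes.

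Other measures moved with the sets. The 100 most abundant genes held 42.3% to 48.8% of the summed FPKM in the first set and 26.0% to 27.6% in the second. The summed level of 9 oocyte markers was 13369 to 14725 FPKM in the first set and 6573 to 7406 in the second, and of these Oosp1 was 3.07 times and Gdf9 2.43 times higher in the first set on average, while Figla was at 0.401 times. The summed level of 11 markers of follicle somatic cells was 6.02 to 10.1 in the first set and 26.2 to 47.8 in the second, and Amh, Amhr2, Inhba and Foxl2 among them stayed below 1 FPKM in all libraries. Rn45s held 1.26% to 1.47% of the sum in the first set and 0.209% to 0.391% in the second. The part of these measures in the members' difference was not tested.

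**Figure D3:**
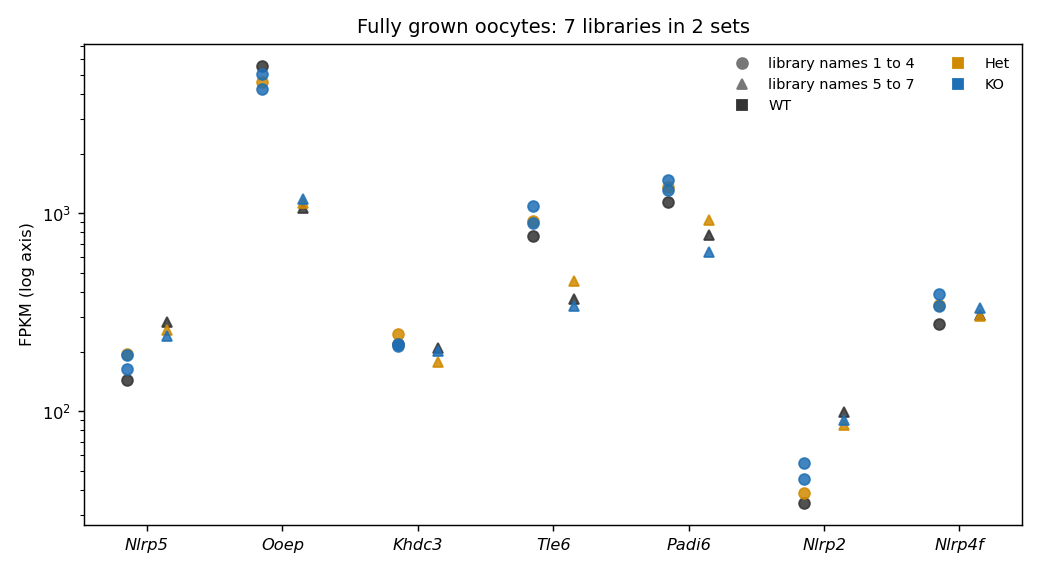
FPKM of the members in the 7 oocyte libraries on a log axis, with circles for the library names 1 to 4, triangles for 5 to 7 and colours for genotype. For Ooep the first set lies between 4253 and 5542 and the second between 1057 and 1185, and the colours mix within each set; the higher values of Nlrp5 and Nlrp2 in the second set do not hold with median ratio scaling.

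Deletion of Ezhip left no member past the threshold in oocytes. In KO against WT, 0 of 7 members passed in limma at an adjusted p of 0.05, and 0 had an unadjusted p under 0.05, beside 1 of 9818 genes called (0.0102%). In Het against WT it was 0 of 7 (0% of genes) and in KO against Het 0 of 7 (0.0102% of genes), again with 0 at an unadjusted p under 0.05. Of all 9818 genes 11, 7 and 9 had an unadjusted p under 0.05 in these 3 comparisons, in this order. The log2 change in KO ran from -0.04 for Nlrp5 to 0.37 for Tle6, with 95% intervals of -0.60 to 1.17 for Ooep and -1.02 to 1.14 for Nlrp2. Of the 7 members 1, Nlrp4f, did not overlap between KO and WT (0.29, SE 0.33), beside 1.97% of all genes. With the library set as a term the intervals narrowed, to -0.32 to 0.18 for Ooep around a change of -0.07, to -0.34 to 0.24 for Khdc3 around -0.05 and to -0.13 to 0.46 for Tle6 around 0.16. Nlrp4f then had a change of 0.28 (SE 0.13), an unadjusted p of 0.0533 and an adjusted p of 1 in limma.

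Leaving out 1 oocyte library could make Ooep pass. Without WT 1, WT 2 or Het 1 a genotype is left with 1 library, which is then assumed to vary like the other groups. Without WT 1 the KO difference of Ooep was 1.48 (SE 0.26, limma adjusted p = 6.25e-05), and without KO 3 it was 0.94 (SE 0.20, limma adjusted p = 0.0131). Without WT 2 the Het difference from WT was -1.29 (SE 0.27, limma adjusted p = 0.0224). KO against Het gave 1.38 without Het 1 (limma adjusted p = 0.00167) and 1.03 without KO 3 (limma adjusted p = 0.0021). Each of these omissions left 1 genotype with libraries of a single set.

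At the 1-cell stage, where all 7 members passed the filter, the genotypes again overlapped for most members. Ooep was at 621 and 732 FPKM in WT, 433 and 872 in mHet, then 385 and 745 in mKO. In the same order Khdc3 was at 4.82 and 12.1, then 6.40 and 9.06, then 6.48 and 9.51. Tle6 was at 59.8 and 108, then 64.7 and 119, then 37.9 and 108, so that the library numbered 2 was 1.81, 1.84 and 2.84 times the library numbered 1 in the respective genotypes. Padi6 was at 336 and 374, then 487 and 410, then 354 and 424. Nlrp5 was at 139 and 166, then 166 and 219, then 150 and 209, and Nlrp4f at 489 and 606, then 625 and 629, then 528 and 616. For Nlrp5 the genotypes overlapped, and for Nlrp4f both mHet libraries were the highest. Nlrp2 was at 16.4 and 15.8 in WT, 23.4 and 25.3 in mHet, then 16.3 and 17.1 in mKO, and both mHet libraries lay above the other 4. Groups did not overlap for 3 of 7 members in mHet against WT (Nlrp2, Padi6 and Nlrp4f, all higher), beside 22.7% of genes, and for 2 in mKO against mHet (Nlrp2 and Nlrp4f, lower), beside 24%.

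In mKO against WT, 0 of 7 members passed in limma, with 0 at an unadjusted p under 0.05, beside 0.0116% of genes called. In mHet against WT it was 0 of 7 (0% of genes) and in mKO against mHet 0 of 7 (0.0116% of genes), with 1 member, Nlrp2, at an unadjusted p under 0.05 in each. The Nlrp2 difference was 0.57 in mHet against WT (SE 0.18, unadjusted p = 0.0166, limma adjusted p = 1) and -0.52 in mKO against mHet (SE 0.18, unadjusted p = 0.0251, limma adjusted p = 1). The mKO interval was -0.38 to 0.48 for Nlrp2 and -0.40 to 0.53 for Nlrp4f, but -1.60 to 0.95 for Tle6.

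For all 7 members every late 2-cell library lay below every 1-cell library, in tables normalized separately. Ooep was at 59.0 and 55.9 FPKM in WT, 37.6 and 33.8 in mHet, then 33.6 and 51.5 in mKO, so that both WT libraries were above the other 4. Its mHet difference was -0.67 (SE 0.26, unadjusted p = 0.032, limma adjusted p = 1) and its mKO difference -0.46 (SE 0.26, limma adjusted p = 0.776). Khdc3 was at 2.40 and 3.43, then 1.80 and 3.15, then 4.37 and 4.53, with both mKO libraries highest (0.49, SE 0.34, limma adjusted p = 0.837). Padi6 ran from 17.1 to 25.3 over the 6 libraries, Tle6 from 9.80 to 16.1, Nlrp5 from 10.4 to 16.6, Nlrp4f from 9.08 to 17.8 and Nlrp2 from 2.00 to 3.58. Of the 7 members 0 passed in limma in mKO against WT (0.00969% of genes), 0 in mHet against WT (0%) and 0 in mKO against mHet (0.0872%). At an unadjusted p under 0.05 the counts were 0, 1 (Ooep) and 0, beside 780, 303 and 967 of 10322 genes. WT and mKO did not overlap for 2 of 7 members, Khdc3 and Ooep, beside 36.9% of genes, and WT and mHet for 2 (Ooep and Nlrp2), beside 30.3%.

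**Figure D4:**
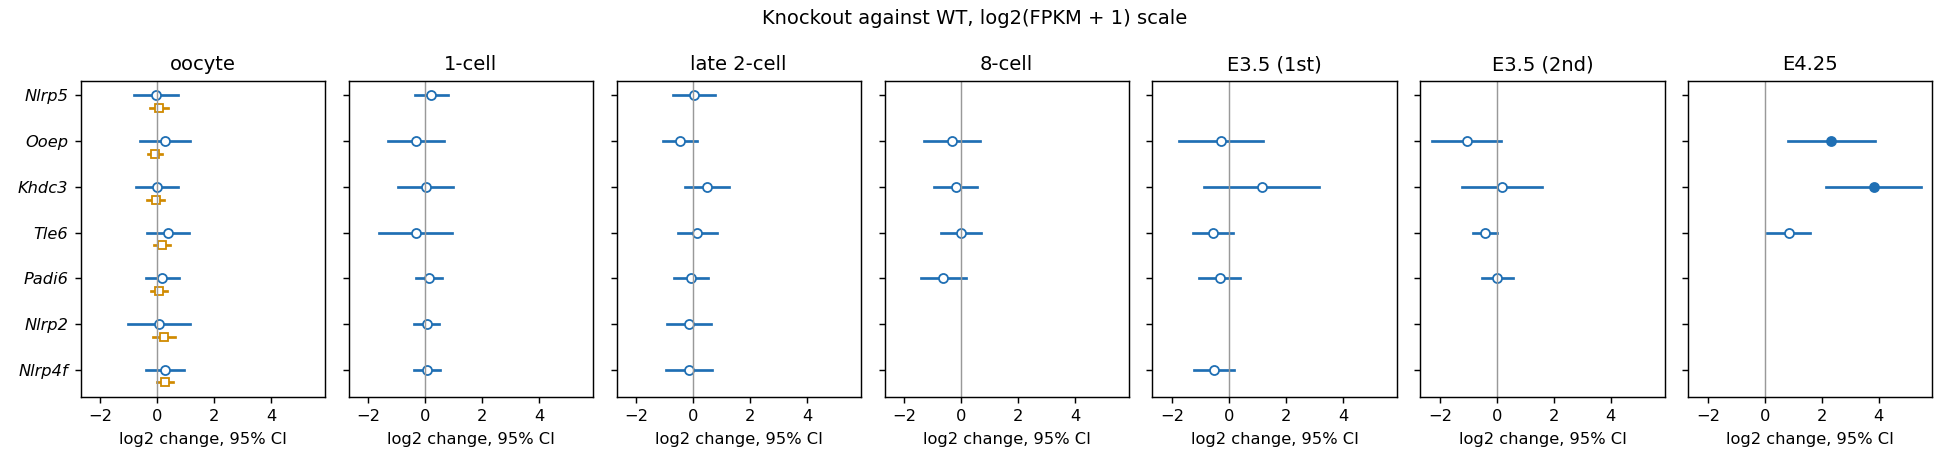
Log2 difference between knockout and WT on the horizontal axis, with its 95% interval, for the members tested at each stage (rows). Filled points, Khdc3 and Ooep at E4.25, passed the limma threshold, and orange squares in the oocyte panel come from the fit with the library set as a term.

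From the 8-cell stage on fewer members passed the filter, since a member near 0 in all libraries was not tested. At the 8-cell stage 4 were tested (Khdc3, Ooep, Padi6 and Tle6) and 0 passed in limma in mKO against WT, beside 0.012% of genes. At an unadjusted p under 0.05 the count was 0, beside 334 of 8319 genes. Padi6 was at 10.7 and 14.9 FPKM in WT, 8.18 in mHet, then 6.98, 6.08 and 11.2 in mKO, a difference of -0.63 (SE 0.36, limma adjusted p = 0.999). The mKO interval for Khdc3 was -0.93 to 0.56. Tle6 was at 2.17 and 1.54 in WT, 3.62 in mHet, then 1.43, 1.87 and 2.28 in mKO.

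At E3.5 the first table had 5 members tested and 0 passed in limma in mKO against WT (0.0407% of genes), mHet against WT (0%) or mKO against mHet (0.0407%). At an unadjusted p under 0.05 the counts were 0, 0 and 1, beside 539, 762 and 533 of 9834 genes. That 1 was Nlrp4f, at 1.07 and 1.47 FPKM in mHet against 0.114 and 0.266 in mKO (-0.93, SE 0.31, limma adjusted p = 0.808). Its WT libraries were at 0.516 and 0.934, so it passed the filter through mHet alone, which favoured this difference. Groups did not overlap for 3 of 5 members in mKO against WT (25.8% of genes), 3 in mHet against WT (49.9%) and 2 in mKO against mHet (45.4%). All of these counts include Nlrp4f, and those against WT include Padi6, which passed the filter through WT alone. The Khdc3 difference of mHet from WT was 1.77 (SE 0.89, limma adjusted p = 0.502) and became 2.84 (SE 0.64, limma adjusted p = 0.0272) without WT 2. That fit leaves WT 1 alone, assumed to vary like the other groups, and in WT 1 Rn45s held 21.0% of the summed FPKM against 2.13% to 9.12% in the other 5 libraries. The second had 4 members tested and 0 passed in limma in mKO against WT (0.0539% of genes), mHet against WT (0%) or mKO against mHet (0.0108%). Here the counts at an unadjusted p under 0.05 were 0, 0 and 1, beside 534, 150 and 577 of 9273 genes. The 1 was Tle6, in mKO against mHet (-0.57, SE 0.20, limma adjusted p = 0.716). It was at most 0.672 FPKM in mKO, so it passed the filter through the other genotypes. Ooep had a mKO difference of -1.07 (interval -2.29 to 0.16, limma adjusted p = 0.951) and Khdc3 one of 0.17 (interval -1.23 to 1.57).

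At E4.25 Khdc3 and Ooep were higher in mKO, in a comparison that called many other genes. Khdc3 was at 0.672, 14.4, 0 and 6.57 FPKM in WT, 13.5 in mHet, then 32.0, 74.9, 36.6 and 82.0 in mKO, so WT and mKO did not overlap. Ooep was at 3.10, 1.13, 0.00505 and 9.43 in WT, 8.25 in mHet, then 18.0, 24.0, 3.44 and 26.5 in mKO, where mKO 3 lay within the WT range. Tle6 was at 0, 0, 0.182 and 0.482 in WT and 1.75, 1.58, 0.243 and 0.989 in mKO. The other members were at most 1.24 FPKM and were not tested. The log2 difference was 3.82 for Khdc3 (SE 0.79, limma adjusted p = 0.00945) and 2.33 for Ooep (SE 0.72, limma adjusted p = 0.042), and 0.83 for Tle6 (SE 0.35, limma adjusted p = 0.109). Tle6 reached 1 FPKM in mKO alone, so it was among the 3 members tested only through the group where it was high. The 2 of 3 members called are read against 1394 of 9550 genes called (14.6%), of which 1370 were higher in mKO, with a median of 0.74 over all genes. Groups that did not overlap, with mKO higher, were found for 21.6% of all genes.

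Signs of RNA quality and embryo markers differed between the same libraries. Genes of at least 1 FPKM numbered 7207, 6193, 5998 and 5923 in WT and 8101, 8988, 7194 and 8300 in mKO. Rn45s held 21.0%, 38.6%, 68.6% and 60.5% of the summed FPKM in WT and 24.2%, 11.7%, 52.4% and 26.6% in mKO. Krt18, a trophectoderm keratin, ran from 20.0 to 104 FPKM in WT and from 170 to 597 in mKO. Cdx2, the trophectoderm factor, ran from 0 to 2.67 and from 8.27 to 12.7. Pou5f1, the pluripotency factor, ran from 0.0621 to 1.39 and from 4.78 to 25.1. Krt8 (14.4 to 59.6 in WT, 42.8 to 321 in mKO) and Gata3 (0.704 to 41.9 in WT, 37.7 to 91.8 in mKO) overlapped. The summed level of 5 trophectoderm markers was 35.2 to 325 in WT and 263 to 1022 in mKO, and that of 6 markers of inner cell mass and primitive endoderm was 8.36 to 36.7 and 55.2 to 91.3. The sums of the epiblast markers (0.105 to 67.4 and 27.6 to 81.2), the extraembryonic ectoderm markers (3.00 to 65.0 and 25.8 to 52.3) and the oocyte markers (1.11 to 3.11 and 0.151 to 2.22) overlapped. Dppa5a, the neighbour of Ooep, was at 152 ± 140 in WT and 937 ± 887 in mKO (SD, n = 4 each, limma adjusted p = 0.0972). Of the related lists, Dppa3 (4.32, limma adjusted p = 0.00365), Ube2a (1.97, limma adjusted p = 0.0308), Khdc1a (1.55, limma adjusted p = 0.0221) and Khdc1c (1.56, limma adjusted p = 0.0304) were called higher in mKO. The summed level of 3 markers of maternal decidua was at most 0.861 in any library. With the Rn45s level as a term, added after seeing the data, Khdc3 gave 3.75 (limma adjusted p = 0.0171) and Ooep 2.12 (limma adjusted p = 0.0732). The part of the markers and of the number of genes detected in the members' difference was not tested.

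Both calls at E4.25 depended on the processing. With median ratio scaling Khdc3 gave 3.05 (limma adjusted p = 0.141) and Ooep 1.62 (limma adjusted p = 0.306). With Rn45s removed they gave 3.83 (limma adjusted p = 0.0523) and 2.31 (limma adjusted p = 0.136), and without the filter limma adjusted p was 0.0704 and 0.181. When single libraries were left out Khdc3 passed in all 8 fits, at 3.19 to 4.50. Ooep did not pass without WT 2 (2.15, limma adjusted p = 0.0983), WT 3 (1.79, 0.0821), mKO 1 (2.23, 0.0987), mKO 2 (2.10, 0.116) or mKO 4 (2.05, 0.123). In percentile rank within a library Khdc3 was at 8.72 to 94.8 in WT and 95.7 to 98.4 in mKO, and Ooep at 18.7 to 94.4 and 75.0 to 94.7.

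**Figure D5:**
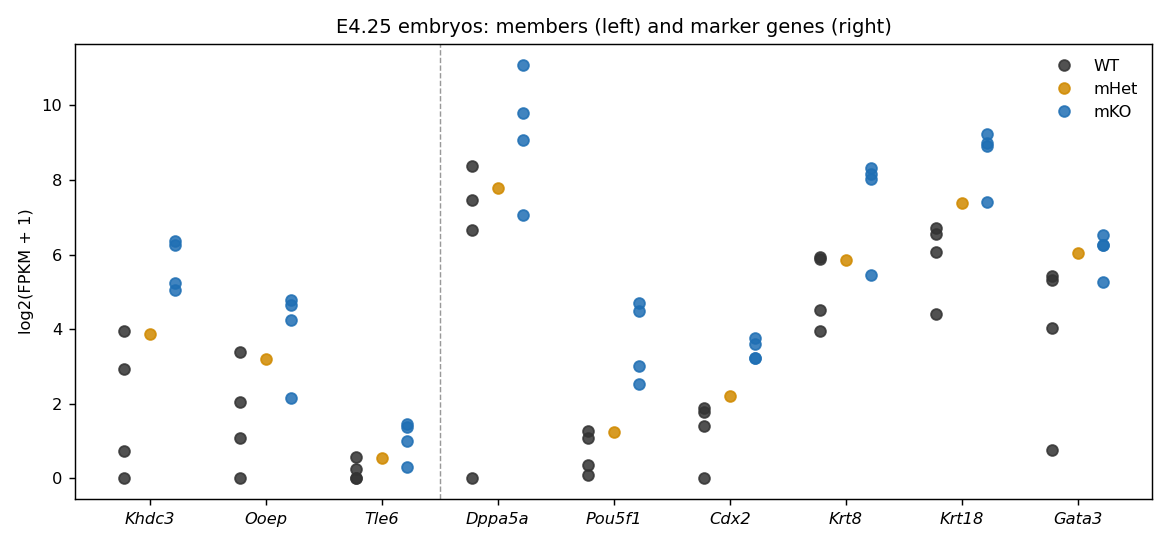
Level as log2(FPKM + 1) on the vertical axis for 3 members and 6 marker genes of the blastocyst at E4.25, where each point is 1 library (4 WT, 1 mHet, 4 mKO). WT and mKO separate for Khdc3 and likewise for Pou5f1, Cdx2 and Krt18.

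At E6.5 Ooep and Tle6 were the members tested, and Ooep was higher in the epiblast, at a mean percentile of 56.8 there. Ooep was at 4.95 and 4.96 FPKM in WT epiblast, 2.24 and 3.73 in mHet, then 2.54 and 5.62 in mKO. In the extraembryonic ectoderm it was at 0.491 and 0 in WT, 0 and 0.143 in mHet, then 0 and 0.148 in mKO, below every epiblast library. In WT the extraembryonic ectoderm was lower by 2.29 (SE 0.34, limma adjusted p = 0.000962). No library of that tissue reached 1 FPKM for Ooep, so it passed the filter through the epiblast alone, which favoured this difference. Tle6 ran from 0.394 to 2.08 over the 6 epiblast libraries and from 1.72 to 5.20 over the 6 of the extraembryonic ectoderm. Its WT difference was 1.10 (SE 0.38, limma adjusted p = 0.0857), and with the WT groups fitted alone limma adjusted p was 0.0178. In the WT epiblast Tle6 was at most 0.642 FPKM. In the fit of the WT groups alone it therefore passed the filter through the extraembryonic ectoderm alone, which favoured the difference. Neither gene overlapped between the WT tissues, beside 64.3% of genes. The count of 1 of 2 members called is read against 1343 of 11028 genes called between the tissues (12.2%). Of the KH-domain relatives Dppa5a alone was tested here and was lower in the extraembryonic ectoderm, at 39.3 ± 0.428 against 137 ± 2.70 (SD, n = 2 each, -1.78, SE 0.48, limma adjusted p = 0.0313).

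Neither gene passed between genotypes at E6.5. In the epiblast 0 of 2 members passed in limma in mKO against WT (0.00907% of genes), mHet against WT (0.0272%) and mKO against mHet (0%). In the extraembryonic ectoderm 0 of 2 passed in mKO against WT (0%), mHet against WT (0%) and mKO against mHet (0.00907%). Between the tissues the mKO effects differed by 0.11 for Ooep (SE 0.48) and -0.55 for Tle6 (SE 0.54), with 0 of 2 called (0% of genes). None of these 7 counts had a member at an unadjusted p under 0.05, beside 271 to 854 of 11028 genes. In the epiblast Tle6 did not overlap between mKO and WT, beside 41.7% of genes, nor Ooep between mHet and WT, where it was lower in mHet, beside 34.1%.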

How the data were processed

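RNA of oocytes and embryos was measured in 68 Smart-seq2 libraries, of which 67 were used. The authors deposited FPKM values per gene in 8 tables. The submitters' processing notes name HTSeq 0.6.0, HISAT2 2.2.1 and Trim Galore 0.4.2 and the builds mm9 and hg19 without a role; no source used here gives the annotation, the step to FPKM, or how strand and multimapping were treated. No step of whole reads could be found in the values, so depth is unknown. Groups came from the labels.

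From these values, log2(FPKM + 1) was fitted with limma 3.58.1 in R 4.3.3 (group means, eBayes with trend), all genotypes of a table together, for genes that reached 1 FPKM in 2 or more libraries. Tests were two-sided, adjusted by Benjamini-Hochberg over all genes kept, at a threshold of 0.05, and were tested on simulated data first. The simulated data were modelled on oocytes, the second E3.5 table and E4.25, and there most given log2 changes of 1 or 2 were missed. A count of 0 members called there therefore does not show that no member changed. The noise was drawn for each library alone, without the 2 oocyte sets. The other stages and the fit with the library set as a term were not simulated. A count of 0 is not read as absence of change there either. A lone mHet library (8-cell, E4.25) was fitted but not compared. The members and the related lists were chosen with earlier results of these data known. Named genes were the 7 members, Ezhip, those of each related list past the threshold or else the highest in WT oocytes, the genes of most similar profile at 10 FPKM or more in WT oocytes, the neighbours and the marker lists. Promoters came from RefSeq (GRCm38.p6). Alternatives were a pseudocount of 0.1, no filter, median ratio scaling, removal of Rn45s, the compared groups alone, each library left out, a replicate block and the library set as a term. The Rn45s level as a term, E4.25 with WT 4 as its only WT library, the comparison of oocyte sets and a block by epiblast column number were added after seeing the data.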

Additional observations from a re-analysis of the deposited data

Results flagged for a closer look

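At E3.5, in the second table, a single mHet library, numbered 6, stood apart from the other 4 in Ooep, at 42.0 FPKM, and a WT library, numbered 7, stood apart in Khdc3, at 112 FPKM. These were 2 of 18 groups examined for a sample far from the others, and chance marks about 1 in 20 groups. Within its group WT 7 also had the lowest Rn45s share, 11.3%, and the most genes of at least 1 FPKM, 8236. The mHet library had the most such genes of its group, 8404, beside 8280 in mHet 7. In percentile rank Khdc3 spanned only 96.7 to 97.5 over these WT libraries. The part of library make-up in these values was not tested.

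Some members had differences of opposite sign at different stages, each with the compared groups not overlapping, and none of these differences between stages was tested. With so few libraries such separation was common in the embryos. It held for 22.7% of genes in mHet at the 1-cell stage, 30.3% in mHet at the late 2-cell stage, 25.8% and 49.9% in mKO and mHet of the first E3.5 table and 41.7% in mKO epiblast. In KO oocytes it was rarer, at 1.97% of genes. Nlrp4f had a log2 difference from WT of 0.29 in KO oocytes and -0.53 in mKO of the first E3.5 table, where it passed the filter through mHet alone. Padi6 had a difference of 0.33 in mHet at the 1-cell stage and -0.30 in mHet of the first E3.5 table. In that E3.5 table Padi6 was at 1.03 and 1.06 FPKM in WT and at most 0.687 in mHet and 0.989 in mKO. It passed the filter there through WT alone, which favoured a value lower than WT. Nlrp2 had a difference of 0.57 in mHet at the 1-cell stage and -0.29 in mHet at the late 2-cell stage. Tle6 had a difference of -0.56 in mKO of the first E3.5 table and 0.69 in mKO epiblast. No difference listed here passed the limma threshold.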

How the results depend on the processing

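Of 299 alternatives to the counts and levels, 281 stayed on the same side, and 20 of 26 results did so in every alternative run. At E4.25 the count of members called, 2, became 1 with a pseudocount of 0.1 or the Rn45s level as a term, and 0 without the filter, with median ratio scaling, with Rn45s removed or with WT 4 as the only WT library, where a lone library picked after seeing the data is assumed to vary like the other groups. Leaving out single libraries gave 1 to 3 there, and 0 to 1 in all 3 oocyte comparisons and in mHet against WT of the first E3.5 table. A count of 3 at E4.25 includes Tle6, which reached 1 FPKM there in mKO alone. The tissue comparison at E6.5 called 2 members with the compared groups alone, each of which passed the filter there only through the tissue where it was high. Between the oocyte sets, Nlrp2 (-0.0069) and Nlrp5 (-0.56) reversed with median ratio scaling. Over single members 146 of 1329 alternatives had the other sign. The share of all genes called is given for the main fits alone, 14.6% at E4.25 and 12.2% between the tissues. Whether a member count changed together with that share therefore cannot be told here, nor for the replicate block below. The cause of these shifts was not tested, and unknown depth limits low values.

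With the replicate number as a block, 0 members were called in every comparison of oocytes, 1-cell, late 2-cell, 8-cell and E3.5 embryos and extraembryonic ectoderm, and 2 at E4.25. By column number, a block added later, it was 0 in the epiblast and for the difference of mKO effects between tissues, so the block changed no call. Same-numbered libraries share only a number: their deviations correlated at 0.557 at the 1-cell stage, 0.213 at the late 2-cell stage and 0.571 in the first E3.5 table, but at 0.588 and -0.332 in oocytes and -0.406 to 0.701 in the second E3.5 table. No paired analysis was possible because of unshared numbers for the WT tissue comparison alone, where the columns are numbered 3 and 4 in the epiblast and 1 and 2 in the extraembryonic ectoderm.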
